A study of Mus musculus with 6 samples.

Results

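Guanylate-binding proteins (GBPs) and immunity-related GTPases (IRGs) are interferon-induced GTPases of cell-autonomous defence. GBPs assemble on membranes of intracellular pathogens and on the vacuoles around them. Effector IRGs coat and disrupt such vacuoles, while regulatory IRGs sit on host membranes and hold the effectors in an inactive state. Their genes are classic targets of interferon gamma, and in mice loss of Irgm1 impairs the survival of activated CD4+ T cells. The genes described are Gbp2, Gbp2b, Gbp3, Gbp4 and Gbp5 of the GBPs, Igtp, Irgm1 and Irgm2 of the regulatory IRGs, and Iigp1 and Tgtp1 of the effector IRGs. They were taken by symbol from the deposited table, in which all 10 were present among 14750 genes, and all 10 passed the filter on low values. On GRCm38, all 10 are annotated as protein-coding. On chromosome 3, plus strand, lie Gbp5 (142493978 to 142522344), Gbp3 (142560026 to 142573209), Gbp2b (142594847 to 142619179) and Gbp2 (142620602 to 142638008). Gbp4 lies on chromosome 5 (105115767 to 105139586, minus strand) and Iigp1 on chromosome 18 (60376027 to 60392634, plus strand). Chromosome 11 holds Irgm1 (48861968 to 48871683) and Tgtp1 (48985327 to 48994172) on the minus strand and Igtp (58199556 to 58207591) and Irgm2 (58199618 to 58222782) on the plus strand.

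Total RNA of splenic CD8+ T cells, taken from suspended spleen by a CD8+ isolation kit, was sequenced after ribosomal RNA depletion in 6 mouse libraries after hematopoietic stem cell transplantation (HSCT). The labels gave 3 libraries as allo-HSCT, from C57BL/6 donors into BALB/c hosts, and 3 as syn-HSCT, from BALB/c donors into BALB/c hosts. BALB/c was therefore the host strain of both groups and the donor strain differed between them. All 6 libraries carried BALB/c as their strain label. The groups are called allo-labelled and syn-labelled libraries. Titles and table columns of the allo-labelled libraries begin with CD8_S and those of the syn-labelled libraries with CD8_A, letters that run opposite to the initials of the labels; what they stand for is not stated. Age, conditioning, time after transplantation and whether libraries came from separate animals are details that the sources used here leave out, so each p-value is set against library-to-library spread alone, and that spread may be technical.

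Levels are in FPKM, fragment counts scaled by exon length and by library total. The totals recovered from these values were 15154000 to 16351000 fragments in allo-labelled libraries and 15310000 to 18715000 in syn-labelled libraries. Strain genes went against the labels: H2-Ea-ps, transcribed in BALB/c and silent in C57BL/6 mice, had 1955 FPKM ± 48.9 in allo-labelled libraries and 4.76 FPKM ± 1.66 in syn-labelled libraries, and Ly6a, stronger in C57BL/6 T cells, was at 28.6 FPKM ± 1.75 in allo-labelled and 331.9 FPKM ± 0.438 in syn-labelled libraries (SD, n = 3 each). Every direction given here is therefore one between libraries as labelled. The dendritic cell marker sum below moved the same way as H2-Ea-ps, and its part in the H2-Ea-ps level was not tested. The 12 T cell markers summed to 2539 to 2693 FPKM in allo-labelled libraries and 3201 to 3233 FPKM in syn-labelled libraries, with 2 called higher and 9 called lower. Sums of other cell types' markers differed in both directions. Dendritic cell markers (9 genes) summed to 4125 to 4351 FPKM in allo-labelled and 213.9 to 235.5 FPKM in syn-labelled libraries. Neutrophil markers (9 genes) summed to 1975 to 2093 FPKM in allo-labelled and 94.8 to 103.9 FPKM in syn-labelled libraries. Macrophage markers (9 genes) summed to 340.9 to 341.9 FPKM in allo-labelled and 42.2 to 43.2 FPKM in syn-labelled libraries, and erythroid markers (5 genes) to 60.3 to 75.4 FPKM in allo-labelled and 1.65 to 1.79 FPKM in syn-labelled libraries. B cell markers (3 genes) summed to 12.8 to 14.01 FPKM in allo-labelled and 9.38 to 9.79 FPKM in syn-labelled libraries, and plasma cell markers (2 genes) to 8.94 to 10.9 FPKM in allo-labelled and 2.19 to 3.19 FPKM in syn-labelled libraries. The NK cell sum (4 genes) ran the other way, at 9.16 to 10.8 FPKM in allo-labelled and 14.8 to 15.4 FPKM in syn-labelled libraries. Yet 3 of these 4 genes had the higher mean in allo-labelled libraries, with 2 called higher and 1 called lower. So did the endothelial and stromal sum (3 genes) run, at 9.66 to 10.3 FPKM in allo-labelled and 14.2 to 15.2 FPKM in syn-labelled libraries. There, 2 of the 3 genes had the higher mean in allo-labelled libraries, with 0 called higher and 1 called lower. Sums of CD4 T cell markers (3 genes) overlapped, at 20.3 to 22.2 FPKM in allo-labelled and 21.8 to 22.4 FPKM in syn-labelled libraries. Within that list, 1 gene was called higher and 2 were called lower. All 9 dendritic cell, all 9 macrophage, all 5 erythroid and 8 of 9 neutrophil markers were called higher, and Hbb-bt, of the erythroid list, was the one of these markers at 0 in a library, a syn-labelled one. These cells also express GBPs and IRGs, and their part in the differences was not tested. In bulk RNA, fewer cells of a type and less RNA per cell cannot be told apart.

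The split between regulatory and effector IRGs is written in the nucleotide-binding loop. The 24 coding bases of this loop are shown because the codon in capitals, the 7th of 8, distinguishes the classes: it reads ATG (methionine) in the regulatory genes and AAG or AAA (lysine, the usual residue of GTP-binding loops) in Tgtp1 and the GBPs. Sequences are from GENCODE vM21 transcripts on GRCm38, which is C57BL/6J sequence.
Igtp: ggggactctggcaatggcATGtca
Irgm1: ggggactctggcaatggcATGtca
Irgm2: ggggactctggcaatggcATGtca
Tgtp1: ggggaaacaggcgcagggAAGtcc
Gbp2: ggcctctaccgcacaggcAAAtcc
Gbp2b: ggcttctaccacacaggcAAAtcc
Gbp4: ggatggtcccatacagggAAGtcc
The 3 regulatory genes carried the same 24 bases, whereas Gbp2 and Gbp2b differed within theirs. Gbp2, Gbp2b and Gbp5 each had a cysteine codon 4 codons before the stop, the position of the lipid anchor of prenylated GBPs, and Gbp3 and Gbp4 did not.

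Allo-labelled libraries had the higher level for most of the family. Of the 10 genes, 9 rose and 1, Gbp3, fell by limma's test (Benjamini-Hochberg adjusted p under 0.05, on log2(FPKM + 1)). Their median log2 difference was 0.61, and that of all 12404 genes tested was 0.01. Of all genes tested, 67.6% were called in either direction, 34.7% as higher and 33% as lower. The groups did not overlap at any of the 10 genes, and did not at 72.3% of the genes tested. Among the 9 that rose, sizes ranged from 17.6-fold for Gbp2b to 1.12-fold for Irgm2 and Gbp2, and the ratio of Gbp3 was 0.902. All 10 genes reached 1 FPKM in both groups. Against a change of 1.5-fold or less as the null (limma's treat), 4 of the 10 were called: Gbp2b, Gbp4, Iigp1 and Tgtp1.

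**Figure D1:**
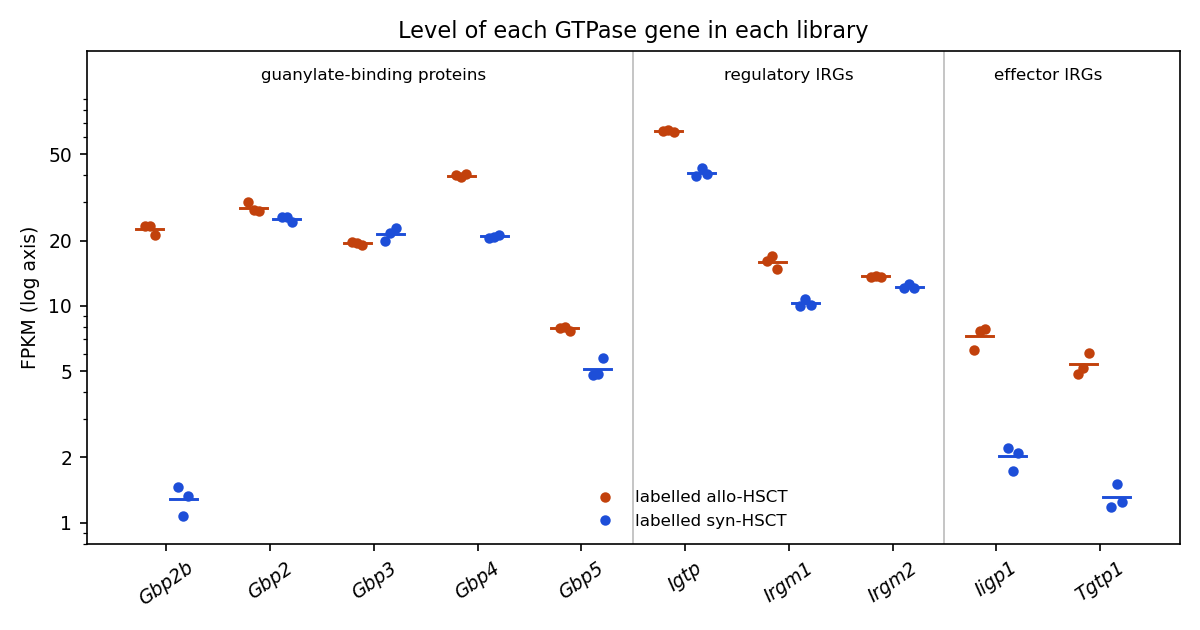
FPKM of each gene (log axis) in the 3 libraries labelled allo-HSCT (orange, left of each pair) and the 3 labelled syn-HSCT (blue, right of each pair); points are libraries and lines are group means. The gap is widest for Gbp2b, at a mean of 22.7 FPKM in allo-labelled and 1.29 FPKM in syn-labelled libraries, and narrow for Gbp2, Gbp3 and Irgm2.

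Gbp2b, formerly Gbp1, is a GBP gene that interferon induces in BALB/c mice and fails to induce in C57BL/6 mice. It was at 23.2, 23.4 and 21.3 FPKM in allo-labelled libraries, against 1.458, 1.078 and 1.325 FPKM in syn-labelled libraries. These values rested on 912 to 1081 fragments per allo-labelled library and on 55 to 70 per syn-labelled library. The groups lay far apart: the means were 22.7 FPKM ± 1.16 in allo-labelled and 1.29 FPKM ± 0.193 in syn-labelled libraries (SD, n = 3 each), with a log2 difference of 3.37 ± 0.08 (SE, limma adjusted p = 1.25e-07). Only 137 of the 12404 tested genes had a larger absolute log2 difference. Its direction was that of H2-Ea-ps, towards the strain that the label does not give as donor. Gbp2b had the 4th highest of the 10 levels in allo-labelled libraries and the lowest mean in syn-labelled libraries, where its range overlapped that of Tgtp1.

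Gbp2, which helps to lyse pathogen vacuoles and lies next to Gbp2b, moved little. It was at 30.03, 27.6 and 27.4 FPKM in allo-labelled libraries and at 25.6, 25.6 and 24.5 FPKM in syn-labelled libraries. Its log2 difference was 0.16 ± 0.04 (SE, limma adjusted p = 0.0143), larger than the spread between libraries but about 1.12-fold. The ratio of Gbp2b to Gbp2 was 0.80 ± 0.042 in allo-labelled libraries and 0.051 ± 0.0079 in syn-labelled libraries (SD, n = 3 each). Of the 50-base stretches of the Gbp2b transcripts, 1.8% also occurred in Gbp2, so few reads of that length are ambiguous between the pair.

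Gbp3, another GBP of the same chromosomal cluster, was lower in allo-labelled libraries, at 19.66, 19.4 and 19.1 FPKM, against 19.99, 21.6 and 22.96 FPKM in syn-labelled libraries. The groups nearly touched, without overlap. The fall was 0.14 ± 0.05 on the log2 scale (a log2 difference of -0.14, limma adjusted p = 0.0447). This call was lost in 10 of 18 alternative settings, among them leaving out any of 5 of the 6 libraries (limma adjusted p = 0.0779 to 0.115 there, and 0.00751 to 0.115 over all settings but the 1.5-fold null).

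Gbp4, with 631 codons the longest coding sequence of the 5 GBPs, was 1.91-fold higher. Its values were 39.9, 39.1 and 40.6 FPKM in allo-labelled libraries and 20.6, 20.8 and 21.3 FPKM in syn-labelled libraries. The log2 difference of 0.90 ± 0.03 (SE, limma adjusted p = 4.25e-07) had the smallest error of the 10 genes. In the order of levels, Gbp4 stood 2nd in allo-labelled libraries, above Gbp2, Gbp2b and Gbp3, while in syn-labelled libraries its range overlapped that of Gbp3.

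Gbp5, which promotes assembly of the NLRP3 inflammasome in macrophages, was at 7.92, 8.03 and 7.67 FPKM in allo-labelled libraries and 4.82, 4.83 and 5.74 FPKM in syn-labelled libraries. One syn-labelled library lay above the other pair of its group, still below every allo-labelled library. The difference was 0.54 ± 0.07 on the log2 scale (SE, limma adjusted p = 0.000468), a ratio of 1.53.

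Igtp, also called Irgm3, had the highest level of the 10 genes in both groups. It was at 64.1, 64.8 and 63.3 FPKM in allo-labelled libraries, against 39.7, 43.1 and 40.4 FPKM in syn-labelled libraries. Irgm1, the regulator with that role in T cell survival, was at 16.1, 16.9 and 14.8 FPKM in allo-labelled libraries and 9.94, 10.7 and 10.1 FPKM in syn-labelled libraries. Both genes shifted by nearly the same ratio, 1.56 for Igtp and 1.55 for Irgm1 (log2 differences 0.63 ± 0.03 and 0.59 ± 0.06, SE; limma adjusted p = 6.35e-06 and 9.34e-05). Irgm2, the third regulator, was at 13.6, 13.8 and 13.6 FPKM in allo-labelled libraries and 12.1, 12.5 and 12.1 FPKM in syn-labelled libraries. Its ratio was 1.12 (log2 difference 0.15 ± 0.03, SE; limma adjusted p = 0.00684). Irgm1 lay above Irgm2 in allo-labelled libraries and below it in syn-labelled libraries, without overlap between the genes in either group. Igtp and Irgm2 share 162 bases of exon on the same strand, 8% of the exon length of Igtp and 4.4% of that of Irgm2, so their values are not fully separate.

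Among the IRGs of the 10 genes, the effectors Iigp1 and Tgtp1 had the lowest levels and the largest ratios. Other IRGs, given below, are not part of this comparison. Iigp1, or Irga6, a GTPase that loads onto parasite vacuoles, was at 6.28, 7.68 and 7.84 FPKM in allo-labelled libraries, against 2.22, 1.74 and 2.11 FPKM in syn-labelled libraries. Tgtp1, or Irgb6, another early-loading effector first found in T cells, was at 4.85, 5.19 and 6.05 FPKM in allo-labelled libraries, against 1.182, 1.502 and 1.2504 FPKM in syn-labelled libraries. The lowest allo-labelled library was above the highest syn-labelled one for each gene. Iigp1 was 3.597-fold higher (log2 difference 1.45 ± 0.10, SE; limma adjusted p = 2.08e-05) and Tgtp1 was 4.09-fold higher (1.46 ± 0.10, SE; limma adjusted p = 1.50e-05). Of the 50-base stretches of Tgtp1, 79.4% also occur in Tgtp2, so the split of reads within this pair is uncertain. Tgtp2 itself was at 15.1 FPKM ± 1.46 in allo-labelled libraries and 6.25 FPKM ± 1.09 in syn-labelled libraries (SD, n = 3 each), the same direction as Tgtp1.

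The 10 genes summed to 224.4 FPKM ± 2.36 in allo-labelled libraries and 140.97 FPKM ± 3.04 in syn-labelled libraries, and without Gbp2b to 201.8 FPKM ± 1.20 in allo-labelled and 139.7 FPKM ± 3.23 in syn-labelled libraries (SD, n = 3 each). GBPs held 52.6% ± 0.76 of the sum in allo-labelled libraries and 52.6% ± 0.99 in syn-labelled libraries. Within that share, Gbp2b took 10.1% ± 0.41 in allo-labelled and 0.91% ± 0.16 in syn-labelled libraries, while Gbp3 took 8.65% ± 0.057 in allo-labelled and 15.3% ± 0.86 in syn-labelled libraries. Gbp2 took 12.6% ± 0.59 in allo-labelled and 17.9% ± 0.68 in syn-labelled libraries. Regulatory IRGs held 41.7% ± 0.46 in allo-labelled and 45.1% ± 1.06 in syn-labelled libraries. The effector IRGs Iigp1 and Tgtp1 held 5.63% ± 0.67 in allo-labelled libraries and 2.37% ± 0.11 in syn-labelled libraries. Relative to Igtp, Irgm1 and Irgm2, these effectors stood at a ratio of 0.135 ± 0.016 in allo-labelled libraries. In syn-labelled libraries the ratio was 0.053 ± 0.0033 (SD, n = 3 each). IRGs outside the 10 genes are not in these sums and could change this ratio. Among them are Ifi47, at 65.7 FPKM in allo-labelled and 54.8 FPKM in syn-labelled libraries, and Gm12250, which fell. These sums and shares are descriptions without a test.

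**Figure D2:**
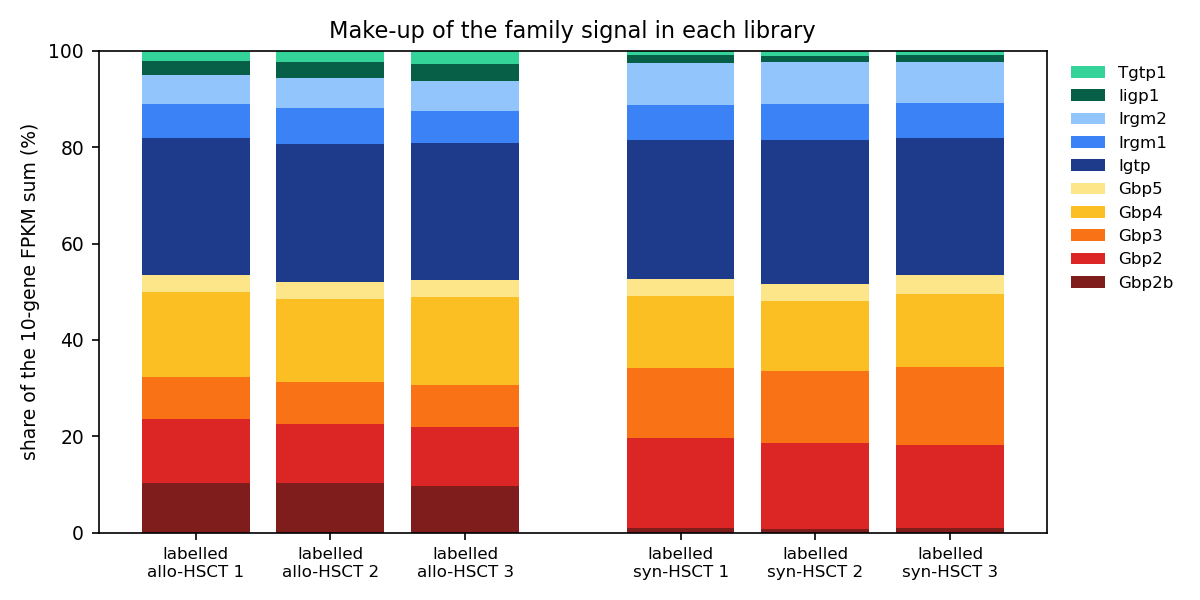
Share of the 10-gene FPKM sum (%) held by each gene in each library, with the 3 libraries labelled allo-HSCT on the left and the 3 labelled syn-HSCT on the right; GBPs are red to yellow, regulatory IRGs blue and effector IRGs green. Gbp2b fills 10.1% of the allo-labelled bars and 0.91% of the syn-labelled bars, and the effector IRGs 5.63% of the allo-labelled and 2.37% of the syn-labelled bars.

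The wider family was read from a list of 26 further GBP, IRG and related genes, of which 19 were in the table and 16 were tested. Of these 16, 10 rose, 2 fell and 4 were not called by limma, with a median log2 difference of 0.56. Of the 10 that rose, Gbp10, Gbp11 and Gm12185 were below 1 FPKM in every syn-labelled library. They reached the filter only through the group where they are high, so they had to differ. Without these 3, 7 rose and 2 fell. The median of 0.56 includes these 3 and would be lower without them. On chromosome 5, in the cluster of Gbp4, 2 relatives that reached the filter level in both groups rose: Gbp9 was at 34.2 FPKM ± 0.147 in allo-labelled libraries and 12.5 FPKM ± 0.699 in syn-labelled libraries, and Gbp8 at 31.7 FPKM ± 1.11 in allo-labelled and 16.5 FPKM ± 0.303 in syn-labelled libraries (SD, n = 3 each; limma adjusted p = 4.16e-07 and 1.24e-06). Gbp10 was at 3.10 FPKM ± 0.577 in allo-labelled and 0.474 FPKM ± 0.031 in syn-labelled libraries, and Gbp11, annotated as a polymorphic pseudogene, at 2.22 FPKM ± 0.12 in allo-labelled and 0.232 FPKM ± 0.158 in syn-labelled libraries (SD, n = 3 each). Genes of this cluster are close in sequence, so the split of reads among them is uncertain. Gbp6 in the same cluster was low, at 0.929 FPKM in allo-labelled and 1.252 FPKM in syn-labelled libraries, and not called (log2 difference -0.23, limma adjusted p = 0.0925). It was called lower without allo-labelled library 3 (-0.32, limma adjusted p = 0.0216), after quantile normalization (-0.60, 0.00337) and with limma voom on recovered fragments (-0.46, 0.0326), with adjusted p up to 0.222 in the other settings but the 1.5-fold null. On chromosome 3, Gbp7 was at 33.3 FPKM in allo-labelled libraries and 33.03 FPKM in syn-labelled libraries, with overlapping groups (limma adjusted p = 0.838). The chromosome 3 cluster thus held Gbp2b, with the largest change of the family, beside Gbp5 at a log2 difference of 0.54 and Gbp7, Gbp3 and Gbp2, each within 0.16 on the log2 scale of no change.

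Among IRGs on chromosome 11, Ifi47, or Irgd, was at 65.7 FPKM in allo-labelled libraries and 54.8 FPKM in syn-labelled libraries. The tandem IRG gene 9930111J21Rik1 was 1.81-fold and 9930111J21Rik2, or Irgb5, 1.43-fold higher, and all 3 rose (limma adjusted p = 0.00028 or smaller). Gm12185, or Irgb2b1, was at 1.54 FPKM in allo-labelled and 0.504 FPKM in syn-labelled libraries. Gm12250, or Irgb10 by its RefSeq synonym, which releases ligands from bacteria in mouse macrophages, fell instead, to 19.9 FPKM ± 1.53 in allo-labelled libraries, against 26.4 FPKM ± 2.03 in syn-labelled libraries (SD, n = 3 each; limma adjusted p = 0.00267). Gm12250 lies close to Igtp, which rose, and is annotated in GENCODE vM21 as a processed pseudogene. The low genes Gm5431, on chromosome 11, and Gm4951 and Gm4841, on chromosome 18, were below the filter and were not tested. Their means, in that order, were 0.851, 0.841 and 0.547 FPKM in allo-labelled libraries and 0.255, 0.388 and 0.032 FPKM in syn-labelled libraries. Irgq, a family relative outside the interferon-induced set, was at 3.96 FPKM in allo-labelled and 3.80 FPKM in syn-labelled libraries and not called (limma adjusted p = 0.701). Of the very large interferon-inducible GTPases, Gvin1 fell to 2.79 FPKM in allo-labelled libraries, against 5.21 FPKM in syn-labelled libraries, and Gm4070 rose to 7.29 FPKM in allo-labelled libraries, against 4.35 FPKM in syn-labelled libraries. Gm8995, annotated as a transcribed unprocessed pseudogene, was at 95.9 FPKM in allo-labelled and 94.03 FPKM in syn-labelled libraries and not called. Their sequences are close to one another, so the split of reads among them is uncertain.

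**Figure D3:**
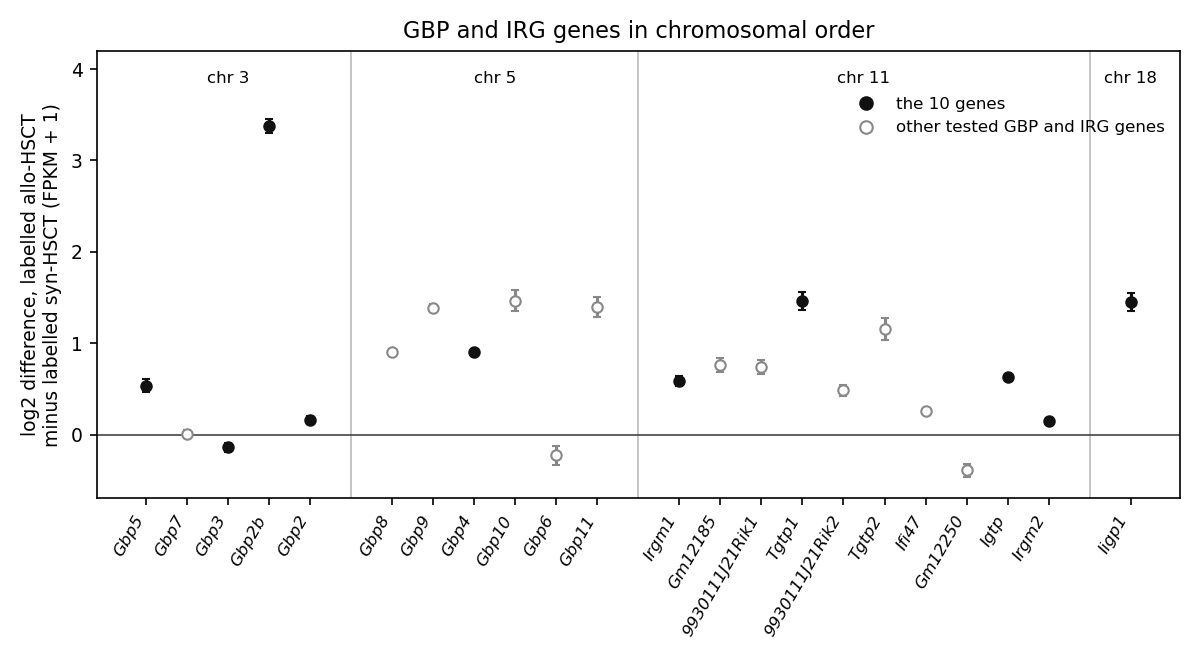
Log2 difference (labelled allo-HSCT minus labelled syn-HSCT, on FPKM + 1) with its SE for the 10 genes (filled) and the other tested GBP and IRG genes (open), in chromosomal order on chromosomes 3, 5, 11 and 18. Gbp2b stands at 3.37 between Gbp3 at -0.14 and Gbp2 at 0.16, and Gm12250 at -0.39 lies beside Igtp at 0.63.

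Promoter windows from 250 bases before to 50 bases after the start were available in RefSeq (GRCm38.p6) for 8 of the 10 genes; Gbp4 and Iigp1 were not matched. They were searched on both strands for the letters TTCNNNGAA (GAS, the gamma-activated site) and GAAANNGAA (part of the ISRE, the interferon-stimulated response element, bound by IRF family factors). ISRE letters were in a window of all 8 matched genes and in 8.56% of all 32851 windows. GAS letters were found for 4 of the 8, Gbp5, Igtp, Irgm2 and Tgtp1, and in 8.3% of all windows. In Igtp, Irgm2 and Tgtp1 a GAS was followed after 2 bases by an ISRE, an arrangement noticed in these windows first. It occurs in 8 of the 32851 windows, 0.0244%, and those of Tgtp2, Gm12185 and Adar (an RNA-editing enzyme gene) are among the 8. Gm12185 shares 223 bases of exon with Tgtp1 on the same strand, so the windows of this pair may hold the same element. The 20-base stretches are shown with the matched letters in capitals. The first base lies 45 bases before the start of Igtp, 75 before that of Irgm2 and 88 before that of Tgtp1, all on chromosome 11.
Igtp: TTCTAGGAActGAAACTGAA
Irgm2: TTCCAGGAActGAAACTGAA
Tgtp1: TTCCAGGAAtcGAAACTGAA
Their log2 differences were 0.63, 0.15 and 1.46, so genes with this arrangement covered most of the range of the IRGs. The pair of neighbours Gbp2b and Gbp2 is shown in full, with ISRE letters in capitals, because their differences of 3.37 and 0.16 were the largest and among the smallest. The windows are chr3:142594597-142594896 for Gbp2b and chr3:142620413-142620712 for Gbp2, both on the plus strand.
Gbp2b: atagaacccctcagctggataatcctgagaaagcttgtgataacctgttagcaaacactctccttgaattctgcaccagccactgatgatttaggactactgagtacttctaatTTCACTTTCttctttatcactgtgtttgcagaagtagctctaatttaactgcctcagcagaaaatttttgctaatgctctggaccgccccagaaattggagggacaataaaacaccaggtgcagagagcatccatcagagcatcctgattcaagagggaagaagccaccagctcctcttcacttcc
Gbp2: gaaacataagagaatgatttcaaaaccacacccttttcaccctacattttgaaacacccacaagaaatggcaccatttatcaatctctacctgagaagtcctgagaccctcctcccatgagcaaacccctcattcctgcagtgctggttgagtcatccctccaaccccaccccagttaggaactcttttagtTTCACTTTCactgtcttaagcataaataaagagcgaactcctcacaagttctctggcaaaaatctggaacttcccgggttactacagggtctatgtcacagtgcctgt
Each window held 1 match, with the same 9 letters TTCACTTTC, starting 136 bases before the start of Gbp2b and 58 before that of Gbp2. These are C57BL/6J sequences, and the BALB/c sequence was not used here. A match is a description of letters, not a binding site.

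Interferon gamma signalling, the pathway that induces the family, did not move in a single direction. Of 21 tested genes of a 22-gene list, 15 rose, 5 fell and 1 was not called, with a median log2 difference of 0.47. Of those that rose, 2, Ifngr2 and Ciita, were below 1 FPKM in every syn-labelled library. They reached the filter only through the allo-labelled group, and 13 of the 15 reached it otherwise. The median of 0.47 includes these 2 and would be lower without them. Ifng, the ligand, fell to 43.2 FPKM in allo-labelled libraries, against 84.8 FPKM in syn-labelled libraries (limma adjusted p = 4.71e-06). Of the receptor chains, Ifngr1 fell to 105.4 FPKM ± 1.43 in allo-labelled libraries, against 194.8 FPKM ± 1.92 in syn-labelled libraries. Ifngr2, the chain that brings JAK2 to the complex, was at 9.04 FPKM ± 0.46 in allo-labelled and 0.464 FPKM ± 0.078 in syn-labelled libraries (SD, n = 3 each). Downstream, Irf1 was 1.39-fold, Irf9 1.51-fold and Jak2 1.495-fold higher, genes chosen after their values were seen (limma adjusted p = 1.69e-05 or smaller). Ptpn11, Stat3 and Ptpn2 fell, at ratios of 0.576, 0.852 and 0.881 (limma adjusted p = 0.00901 or smaller), and Irf2 was not called. Irf8, which drives myeloid and dendritic cell fates, and Ciita, the MHC class II transactivator of antigen-presenting cells, were higher by far more, at 161.8 and 33.5 FPKM in allo-labelled libraries and 20.5 and 0.866 FPKM in syn-labelled libraries. The dendritic cell marker sum given above moved the same way, and its part in these differences was not tested.

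Of 23 tested genes among 27 other interferon gamma targets, 15 rose, 1 fell and 7 were not called, with a median of 0.23. Of the 15, 1 reached the filter only through the allo-labelled group, and the median includes it. Cxcl9, a chemokine made by macrophages and dendritic cells, was at 36.7 FPKM in allo-labelled libraries and 1.604 FPKM in syn-labelled libraries. Cybb, of the phagocyte oxidase, was at 14.6 FPKM in allo-labelled and 1.32 FPKM in syn-labelled libraries, Icam1, an adhesion molecule, at 39.3 FPKM in allo-labelled and 15.1 FPKM in syn-labelled libraries, and Psmb9, of the immunoproteasome, at 89.5 FPKM in allo-labelled and 58.9 FPKM in syn-labelled libraries. Wars, a tRNA synthetase gene, fell to 21.9 FPKM in allo-labelled libraries, against 28.99 FPKM in syn-labelled libraries.

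In a list of 29 antiviral genes induced mainly by type I interferon, 23 rose, 3 fell and 3 were not called, with a median of 0.93. Of these, 8 that rose, Ifi44 and Ifi44l among them, and 1 that fell, Oas1a, reached the filter through a single group. That leaves 15 that rose and 2 that fell. The median of 0.93 includes the genes of a single group and would be lower without them. Ifi44l was at 17.3 FPKM in allo-labelled libraries and 0.166 FPKM in syn-labelled libraries, Ifi44 at 6.13 FPKM in allo-labelled and 0.132 FPKM in syn-labelled libraries, and Irf7, the amplifier of the type I response, at 43.97 FPKM in allo-labelled and 14.2 FPKM in syn-labelled libraries. The genes that fell were Ifitm1, Ifih1 and Oas1a. Oas1a, an oligoadenylate synthetase with close paralogs, was at 0.023 FPKM in allo-labelled libraries, with 1 of them at 0, and at 11.2 FPKM in syn-labelled libraries.

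**Figure D4:**
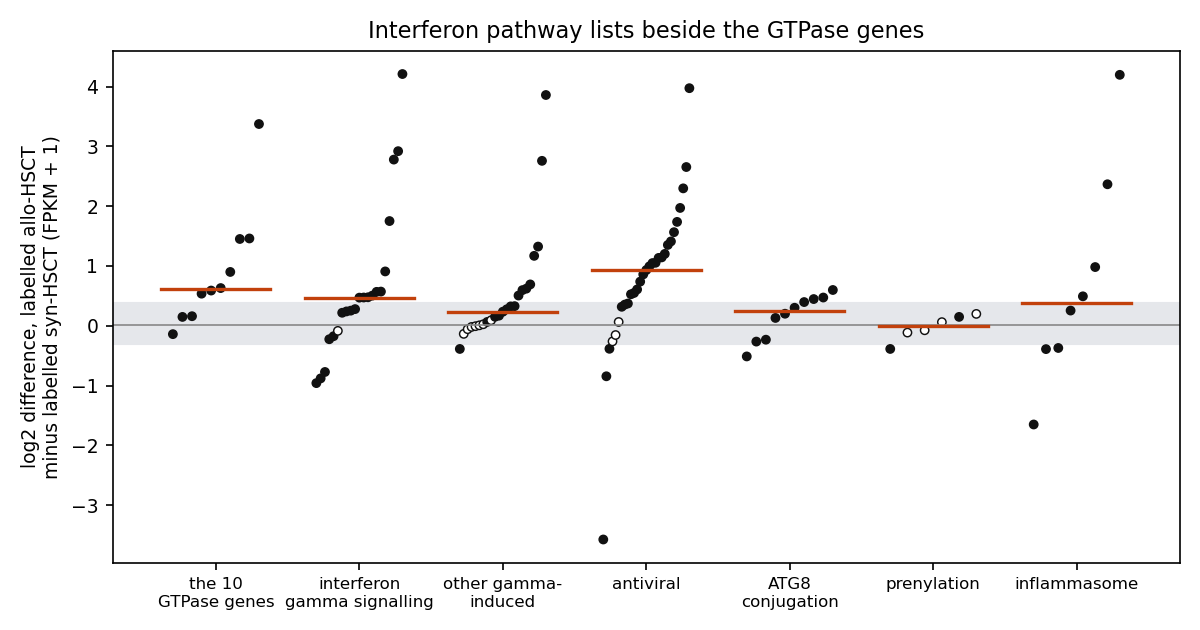
Log2 difference (labelled allo-HSCT minus labelled syn-HSCT, on FPKM + 1) of every tested gene of each list, with called genes filled, others open and the list median as an orange line; the grey band runs from the lower to the upper quartile of all genes tested, -0.30 to 0.38. The medians of the 10 GTPase genes (0.61), interferon gamma signalling (0.47) and the antiviral list (0.93) lie above the band, and the medians of the other 4 lists plotted lie within it. The medians of interferon gamma signalling and the antiviral list include genes that reached the filter through a single group. Both would be lower without those genes, so their place beside the band and the 10 genes rests partly on them.

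The ATG8 conjugation machinery helps to place IRGs and GBPs on the right membranes, and of 10 such genes 7 rose and 3 fell, with a median of 0.25. Gabarapl2 and Gabarap were 1.37-fold and 1.39-fold higher and Map1lc3b 1.16-fold higher, whereas Gabarapl1, Atg5 and Atg7 fell, with log2 differences of -0.51, -0.26 and -0.23. Of 6 prenylation genes, which attach and process the lipid anchor, Fnta was higher by 0.15 on the log2 scale (limma adjusted p = 0.0493), a call lost in most alternative settings, among them leaving out allo-labelled library 2 or syn-labelled library 1 or 2, each giving 0 genes called higher. Zmpste24 fell by 0.39 and 4 were not called. Among the uncalled, Fntb was at 6.14 FPKM in allo-labelled and 5.22 FPKM in syn-labelled libraries and Icmt at 12.6 FPKM in allo-labelled and 13.3 FPKM in syn-labelled libraries.

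Of 8 inflammasome genes, which GBPs help to engage in macrophages, 5 rose and 3 fell, with a median of 0.37. Of those that rose, Il1b and Nlrp3 reached the filter only through the allo-labelled group. Without these 2, 3 rose and 3 fell. The median of 0.37 includes Il1b and Nlrp3 and would be lower without them. Il1b was at 23.7 FPKM in allo-labelled libraries and 0.351 FPKM in syn-labelled libraries, Nlrp3 at 5.42 FPKM in allo-labelled and 0.245 FPKM in syn-labelled libraries and Gsdmd, the pore-forming executor, at 32.3 FPKM in allo-labelled and 22.6 FPKM in syn-labelled libraries. Pycard, the adaptor, was at 5.05 FPKM in allo-labelled libraries and 17.9 FPKM in syn-labelled libraries, and Casp1 and Casp4 also fell, with log2 differences of -0.39 and -0.37. Il1b and Nlrp3 are myeloid genes, and the neutrophil and macrophage marker sums moved the same way; their part was not tested.

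The genes whose centred log2 profiles over the 6 libraries lay nearest to that of Igtp, the gene with the highest mean level, included Tbc1d5, Zfp623, Crlf3 and Ociad2, at Euclidean distances of 0.055, 0.058, 0.066 and 0.072. Crlf3, a cytokine receptor-like gene, was at 44.5, 42.2 and 43.0 FPKM in allo-labelled libraries and 26.4, 28.9 and 26.8 FPKM in syn-labelled libraries. The groups did not overlap for Crlf3. None of these 4 genes is on the GBP, IRG or interferon lists. The profiles are on log2(FPKM + 1), which understates the change of low genes. Ratios of mean FPKM were 2.51 for Ociad2, 1.805 for Tbc1d5, 1.79 for Zfp623 and 1.58 for Crlf3, against 1.56 for Igtp. Ociad2 was below 1 FPKM in every syn-labelled library and reached the filter only through the allo-labelled group.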

How the data were processed

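FPKM values of 6 libraries were deposited by the authors in 1 table of 14750 genes; the unit was read from the values, which would look alike as RPKM, and aligner, counter and build are not given in the sources used here. The submitters' processing notes list limma without a role or version. The larger group mean of every gene was at least 0.5 FPKM. Multiplied by exon length in GENCODE vM21 (GRCm38), 94.2% to 94.6% of values above 0 were whole fragments within 0.1. Groups follow the label naming donor and host. The 12404 genes that reached 1 FPKM in 3 or more of the 6 libraries were fitted as log2(FPKM + 1) with limma 3.58.1 in R 4.3.3 (lmFit, eBayes with trend, no covariates), with Benjamini-Hochberg adjustment over all of them, allo-HSCT minus syn-HSCT as labelled. Log2 differences understate the change of low genes; ratios are of mean FPKM. The fit was also run on simulated data with far fewer changed genes than were called here. That run does not measure how reliable the calls here are. Replicate numbers were not used as pairs in this fit. The genes and lists were chosen with earlier results of these data known. The text names the 10 genes, every listed relative in the table and nearest profiles. From each further list it names up to 4 genes with the smallest p. It also names genes called against most of their list where at most 4 were. Irf1, Irf2, Irf9, Jak2, Ptpn2, Ptpn11, Stat3 and Adar were named after their values were seen. Protein sequences were not used here. Some genes under this rule are not reported here.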

Additional observations from a re-analysis of the deposited data

How the results depend on the processing

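The 9 genes called higher were called higher in 16 of 18 alternative settings; 8 were at a filter of 5 FPKM, which Tgtp1 did not pass, and 4 against a 1.5-fold null. Gbp3, the 1 gene called lower, kept its direction in all 18, but 0 genes were called lower with the replicate number as a block, after quantile normalization, after scaling to CD3 and CD8 genes, without the eBayes trend and against the 1.5-fold null; leaving out single libraries gave 0 to 1. The cause was not tested. Deviations of same-numbered libraries correlated at 0.0627, 0.122 and -0.083, and not every library correlated best with its own number. With so few libraries per group, these correlations cannot tell whether replicate numbers pair the libraries. The replicate block gave 4164 genes higher and 3949 lower across all genes, against 4298 and 4092 without it. The balance of calls turned to more lower than higher at a filter of 5 FPKM, with fewer genes tested (2817 higher, 3248 lower), after quantile normalization (3742 and 4790) and under median-of-ratios scaling (4137 and 4307). Scaling to CD3 and CD8 genes used factors of 0.971 to 1.036 for allo-labelled and 0.992 to 1.014 for syn-labelled libraries, too near 1 to test the 9 higher calls.

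Against a 1.5-fold null, the higher and lower calls were 1486 and 894 across all genes, 5 and 0 of the other GBP and IRG genes, 5 and 3 in interferon gamma signalling, 4 and 0 of its other targets, 0 and 0 in ATG8 conjugation, 0 and 0 in prenylation, and 2 and 1 in the inflammasome list. Quantile normalization gave 2 lower among the other gamma targets and 5 lower in the antiviral list. Leaving out single libraries gave 1 to 2 lower among the other gamma targets and 0 to 1 higher in prenylation. The prenylation call, Fnta, was absent (0 higher) with the block, at a pseudocount of 0.01, with no filter, under median-of-ratios and CD3 and CD8 scaling and without the trend, and voom on recovered fragments gave 2.

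The uncalled Gbp7 ranged from -0.0205 to 0.0389 on the log2 scale over left-out libraries and was -0.0157 under median-of-ratios scaling; the uncalled Irgq ranged from -0.0166 to 0.131 and was -0.14 after quantile normalization. The stricter letters GAAACNGAA were found for 5 of the 8 genes with a promoter window, and in 1.88% of all 32851 windows. The low levels of Gbp2b and Tgtp1 in syn-labelled libraries rest on 55 to 87 fragments per library, which limits the precision of their ratios.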
